A study of Homo sapiens with 8 samples.

Results

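The small nucleolar RNA host genes (SNHG genes) are long non-coding RNA genes whose introns carry small nucleolar RNAs (snoRNAs), the guides for chemical modification of ribosomal RNA. In undifferentiated and differentiated Caco-2 cells, 221 of 24199 small open reading frames (smORFs) were placed in 22 SNHG genes. A smORF was taken when the deposited annotation gave it an SNHG symbol and no symbol of a snoRNA, a small Cajal body RNA or another small nuclear RNA. A further 141 smORFs carried an SNHG symbol together with a small RNA symbol and were left out. Genes are named here by their SNHG symbol and smORFs by the IEC number of the annotation.

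As background, an SNHG gene is transcribed and spliced like a messenger RNA, the snoRNAs are trimmed from the excised introns, and the joined exons leave the nucleus as a capped RNA. Several of these RNAs begin with a pyrimidine stretch of the kind found on ribosomal protein mRNAs. They hold only short reading frames, and many are broken down by nonsense-mediated decay, which removes RNAs whose translation stops early. Footprints on exon sequence outside the snoRNAs were taken here as a measure of ribosomes on the host RNA and not of the snoRNA. Exon sequence means exons of any annotated transcript of the gene. Host RNA that keeps an intron therefore cannot be told apart from spliced host RNA.

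Ribo-Seq, the sequencing of RNA fragments shielded by ribosomes, was performed on Caco-2 cells, an established colon adenocarcinoma line that becomes enterocyte-like after it is left to differentiate. The 8 libraries formed 4 groups of 2. The first group was undifferentiated, and the next was differentiated and given no micelles, called the control. Another group was differentiated and given micelles of taurocholate, a bile salt, with no lipid, and the last was differentiated and given lipid micelles holding BSA, oleic acid and cholesterol. All cells were washed in cycloheximide, which arrests ribosomes. For mass spectrometry of Caco-2 cells in 4 similar conditions, the paper kept differentiated plates in culture longer than undifferentiated ones. Those differentiated plates then spent a night in medium without serum, with or without micelles. If the footprint cultures were handled alike, time in culture and serum cannot be told apart from differentiation. Ribosome footprints alone were used, so a change in RNA amount and a change in ribosomes per RNA cannot be told apart. The labels do not say whether replicates came from separate cultures, so p-values measure the spread between these libraries, which may be technical.

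Library totals ran from 506382 to 884711 counts over all smORFs. The enterocyte label was checked with a list of 22 epithelial and enterocyte genes, of which 12 held a smORF, 10 could be tested, 5 were called higher and 1 lower in control than in undifferentiated cells, where 20.0% and 16.7% of all genes tested were. APOA4, an apolipoprotein of absorptive enterocytes, had 5 and 3 counts before and 551 and 994 after differentiation, whereas APOA1, another apolipoprotein, was the gene called lower, with 624 and 807 counts before and 155 and 453 after. Of 11 cell-cycle genes, 7 could be tested and 6 were lower, and their summed level was 5550 to 6290 CPM in undifferentiated and 400.0 to 464 CPM in control libraries. Of 9 fibroblast genes 7 held a smORF and 3 of these were at 0 in all libraries. Their sum was 106 to 165 CPM in undifferentiated and 2.56 to 3.92 CPM in control libraries, and PDGFRA, the single one that could be tested, was lower. PDGFRA held 42 and 28 of the 54 and 31 summed counts in undifferentiated libraries. Of 9 leukocyte genes 3 held a smORF and 2 of these were at 0, with a sum of at most 3.92 CPM in any library. The enterocyte and cell-cycle lists, and PDGFRA of the fibroblast list, move with differentiation, and their part in the SNHG results was not tested. Fewer cells of a type and less RNA per cell cannot be told apart in such bulk libraries.

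The sequences below are the smORFs with the highest level, called leading smORFs, in SNHG genes called at the gene or smORF level, with a few others that moved apart from the rest of their gene. Each is printed 5′ to 3′ as the deposited annotation gives it, joined over its exons, and was identical to hg38. Capitals mark the first codon of the reading frame, which is ATG in some and a near-cognate or other triplet in others. The leading SNHG7 smORF is over 300 bases and the SNHG4 and SNHG6 ones are not shown, and IEC_19040 stands for SNHG7, chosen after its values were seen. IEC_09955 is the only smORF of SNHG9 and so its leading smORF.
IEC_07400 (SNHG29, leading): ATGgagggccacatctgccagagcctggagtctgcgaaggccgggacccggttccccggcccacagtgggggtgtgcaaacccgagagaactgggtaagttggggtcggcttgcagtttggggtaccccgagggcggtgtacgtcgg
IEC_06760 (SNHG29): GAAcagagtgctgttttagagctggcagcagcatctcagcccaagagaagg
IEC_04115 (SNHG32, leading): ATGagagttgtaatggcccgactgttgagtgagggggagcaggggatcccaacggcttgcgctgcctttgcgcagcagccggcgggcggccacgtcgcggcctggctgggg
IEC_04111 (SNHG32): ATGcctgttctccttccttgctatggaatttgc
IEC_11635 (SNHG8, leading): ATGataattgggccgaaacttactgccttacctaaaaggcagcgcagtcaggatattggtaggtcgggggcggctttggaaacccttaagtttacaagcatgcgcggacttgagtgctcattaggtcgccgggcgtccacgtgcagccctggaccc
IEC_06236 (SNHG11, leading): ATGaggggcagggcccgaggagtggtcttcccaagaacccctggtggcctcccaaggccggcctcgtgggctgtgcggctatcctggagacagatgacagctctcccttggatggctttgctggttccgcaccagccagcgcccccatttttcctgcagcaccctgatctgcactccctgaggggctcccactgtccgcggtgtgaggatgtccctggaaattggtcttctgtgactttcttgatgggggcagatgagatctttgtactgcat
IEC_16791 (SNHG5, leading): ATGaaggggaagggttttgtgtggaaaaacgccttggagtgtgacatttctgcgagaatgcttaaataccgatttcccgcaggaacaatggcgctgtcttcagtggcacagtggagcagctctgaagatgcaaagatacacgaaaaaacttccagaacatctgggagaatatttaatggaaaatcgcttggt
IEC_16799 (SNHG5): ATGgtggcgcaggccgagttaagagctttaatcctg
IEC_19040 (SNHG7): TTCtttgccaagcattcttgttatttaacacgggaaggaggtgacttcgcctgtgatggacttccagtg
IEC_21307 (SNHG1, leading): ATCaaactagctcactatgaccgacag
IEC_22232 (SNHG15, leading): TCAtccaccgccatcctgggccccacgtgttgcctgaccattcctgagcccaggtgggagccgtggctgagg
IEC_18329 (SNHG17, leading): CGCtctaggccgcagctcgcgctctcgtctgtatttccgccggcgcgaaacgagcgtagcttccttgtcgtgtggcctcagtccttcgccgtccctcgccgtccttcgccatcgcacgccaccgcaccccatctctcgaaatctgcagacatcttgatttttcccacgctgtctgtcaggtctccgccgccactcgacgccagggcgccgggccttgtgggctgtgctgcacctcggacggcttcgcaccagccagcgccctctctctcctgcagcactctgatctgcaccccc
IEC_10633 (SNHG30, leading): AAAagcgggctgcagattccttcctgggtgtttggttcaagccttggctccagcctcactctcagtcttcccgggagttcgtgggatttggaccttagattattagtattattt
IEC_05304 (SNHG3, leading): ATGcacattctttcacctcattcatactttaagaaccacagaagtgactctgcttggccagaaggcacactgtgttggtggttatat
IEC_09955 (SNHG9): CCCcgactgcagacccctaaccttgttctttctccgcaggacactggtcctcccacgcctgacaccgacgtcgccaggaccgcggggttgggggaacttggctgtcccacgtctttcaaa

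In hg38 these lay on the plus strand at chr17:16439055-16439467 (IEC_07400), chr17:16441081-16441131 (IEC_06760), chr6:31834948-31835058 (IEC_04115), chr6:31837411-31839550 (IEC_04111), chr4:118278820-118278975 (IEC_11635), chr20:38446793-38447984 (IEC_06236), chr17:35568259-35568372 (IEC_10633), chr1:28509190-28509276 (IEC_05304) and chr16:1965367-1965486 (IEC_09955). On the minus strand were chr6:85677976-85678270 (IEC_16791), chr6:85678622-85678657 (IEC_16799), chr9:136726360-136726428 (IEC_19040), chr11:62853930-62853956 (IEC_21307), chr20:38434544-38435407 (IEC_18329) and chr7:44986079-44986577 (IEC_22232). All are exonic in GENCODE 44, where each of the 22 SNHG genes is typed as lncRNA.

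The median SNHG smORF was 32 amino acids long, with a range of 6 to 135, against a median of 31 over all smORFs and 41 over other non-coding smORFs. They began with ATG in 105 of 221 cases (47.5%), against 43.4% of all smORFs and 63.4% of the 5183 other smORFs classed as non-coding. The annotation classed 210 as non-coding and 11 as upstream ORFs, and those 11 were all in SNHG4 and SNHG20, whose smORFs share exons with the coding genes MATR3 and SEC14L1. None had a positive mean PhyloCSF score, a measure of protein-like codon conservation, against 1.75% of all smORFs and 1.2% of other non-coding smORFs. Repeat elements were noted for 27.6% of SNHG smORFs, 39.7% of all smORFs and 55.0% of other non-coding smORFs. SNHG smORFs were well covered, with 49.8% reaching 10 counts in every library against 27.4% of all smORFs and 16.1% of other non-coding smORFs. Of the 221, 206 (93.2%) overlapped another smORF of the table, against 70.3% of all smORFs and 70.7% of other non-coding smORFs. The counts of overlapping smORFs are in part the same reads.

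No SNHG smORF overlapped a small RNA exon on its strand, which leaving out smORFs with a small RNA symbol largely set in advance. The nearest lay 19 nt from one. There were 15 within 60 nt, among them IEC_07400 and IEC_11709 of SNHG29, both 38 nt from SNORD49B, and IEC_09955 of SNHG9, 57 nt from SNORA78. In 39 smORFs some bases lay in a same-strand exon of another gene, and in 2 some lay opposite an exon of the other strand. In 218 smORFs every base lay in exons of the named SNHG gene. The other 3 were IEC_04549 of SNHG20 and IEC_08004 and IEC_07898 of SNHG4, and in IEC_08004 51 of 141 bases were in SNHG4 exons while all 141 were in MATR3 exons. In 19 smORFs, 7 of them in SNHG7, a 28-base stretch also occurred elsewhere in hg38, and the counting options for such reads are not given in the sources used here.

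Levels between genes were compared per length, as the normalised CPM of the leading smORF per 100 nt. In control cells the leading smORF of SNHG29, host of SNORD49A, SNORD49B and SNORD65, stood highest at 1060 CPM per 100 nt, with 978 and 1150 in its libraries. SNHG1 followed at 671 (566 and 776), SNHG32 at 664 (589 and 739), SNHG8 at 607 (587 and 628) and SNHG6 at 500 (428 and 572). The SNHG1 value belongs to IEC_21307, which is 27 nt long, about the size of one footprint. SNHG1, SNHG32 and SNHG8 overlapped in their replicate ranges, and SNHG29 lay above all 3. SNHG7 came next at 185 CPM per 100 nt (183 and 187). A middle tier held SNHG17 at 105, SNHG5 at 84.9, SNHG15 at 81.1 and SNHG16 at 77.8, each overlapping the next. SNHG11 was at 55.9 and SNHG18 at 47.3, and the other 10 genes were at 19.9 or lower.

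In undifferentiated cells the same gene led the order, SNHG29 at 438 CPM per 100 nt, and its range of 384 to 492 overlapped that of SNHG6 at 339 (286 and 393). SNHG1 at 335 had the widest spread of the high genes, with 492 and 178 in its libraries. SNHG15 ranked 6 in undifferentiated and 9 in control cells, at 190 (169 and 212) and 81.1 (78.6 and 83.7). SNHG7 moved the other way, from rank 10 at 56.4 (45.6 and 67.2) to rank 6 at 185. SNHG31, the lowest in undifferentiated cells at 2.60, and SNHG9, the lowest in control cells at 3.14, are values set by a handful of counts.

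**Figure D1:**
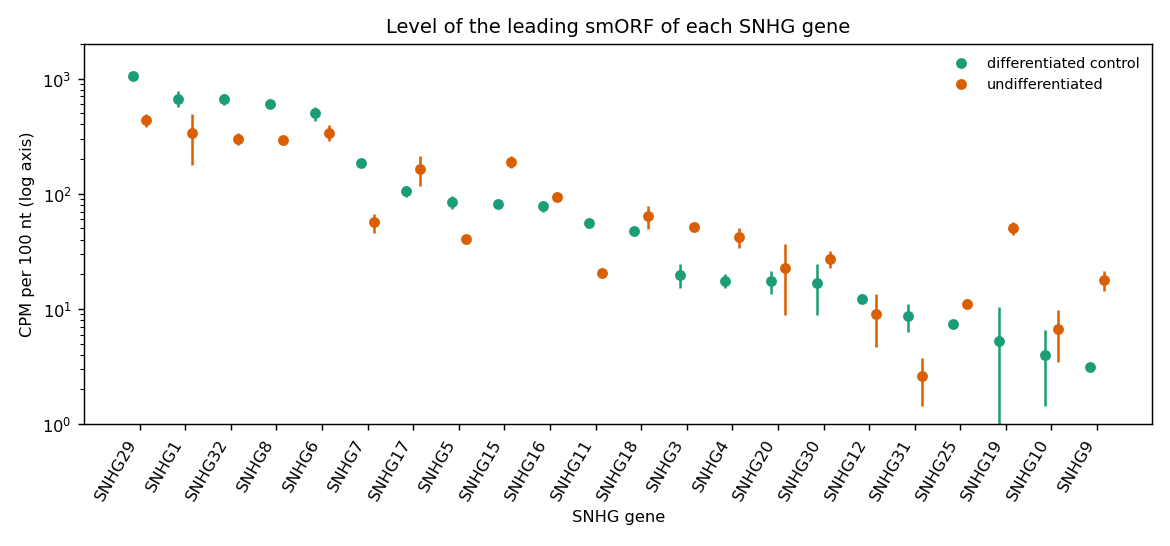
Level of the leading smORF of each of 22 SNHG genes, in normalised CPM per 100 nt on a log axis, as the mean (point) and the range of 2 libraries (line) in differentiated control and undifferentiated cells. The SNHG19 line in control cells runs to 0, past the axis floor, SNHG29 is highest in both groups, and SNHG15 (190 against 81.1) and SNHG9 (17.8 against 3.14) are higher in undifferentiated cells.

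For each gene, the leading smORF of every cluster of overlapping smORFs was summed, so that overlapping smORFs did not enter a gene together. Together the SNHG genes took 0.744% and 0.70% of smORF counts in undifferentiated, 1.25% and 1.25% in control, 1.29% and 1.35% in micelle-without-lipid and 1.15% and 1.21% in lipid micelle libraries. The mean share was 0.722% ± 0.0306 (SD, n = 2) in undifferentiated and 1.25% ± 0.00331 (SD, n = 2) in control cells. Both control libraries lay above both undifferentiated ones, and with 2 against 2 the smallest two-sided exact permutation p is 0.333, so no test was made. With overlapping smORFs included the mean shares were 1.78% and 2.27%. The 5 genes called higher below, picked by this same comparison, held 0.257% and 0.316% of counts in undifferentiated and 0.743% and 0.73% in control libraries. The 4 called lower held 0.0707% and 0.0556%, then 0.0251% and 0.0265%, and the other 13 genes held 0.417% and 0.329%, then 0.482% and 0.498%.

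The first question was how the SNHG genes change when Caco-2 cells differentiate. Of 22 genes, 19 had enough counts to test, 5 were called higher and 4 lower in control than in undifferentiated cells, at an adjusted p under 0.05 in edgeR's quasi-likelihood test and a log2 fold change of at least 1 in size. These are 26.3% and 21.1% of the genes tested, beside a background of 20.0% called higher and 16.7% called lower among all 5291 genes, so neither share stands far from it. The median log2 fold change of the 19 was 0.30, against 0.06 over all genes tested. The 19 fell into 10 with a positive and 9 with a negative log2 fold change.

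**Figure D2:**
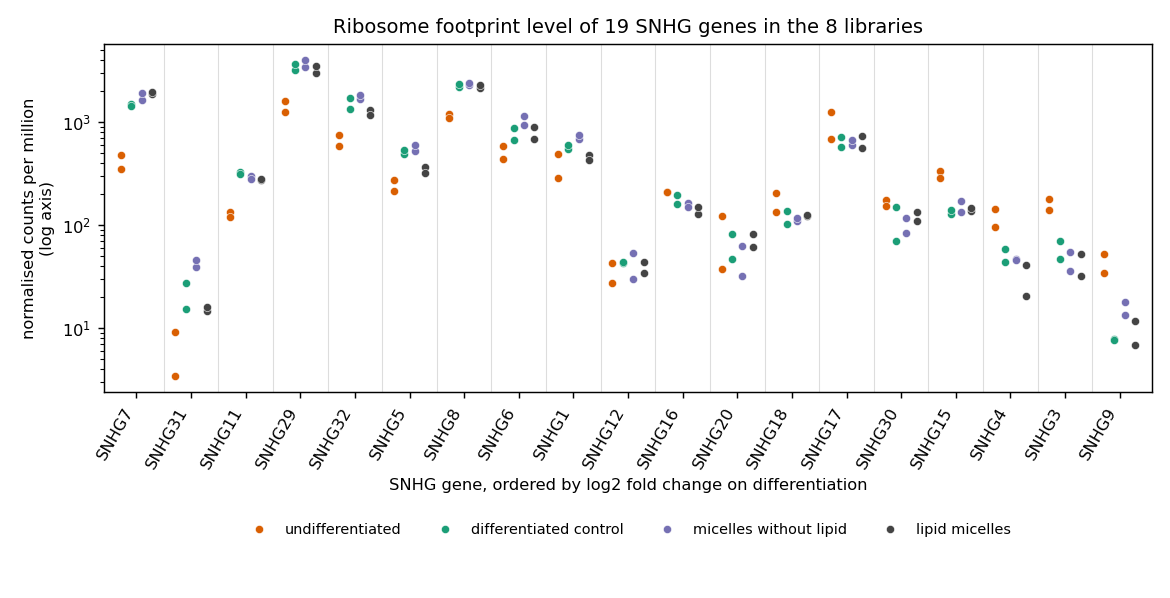
Normalised CPM on a log axis for the 19 tested SNHG genes, with 1 point per library and colours for the 4 groups. The points of SNHG7, SNHG11, SNHG29, SNHG32 and SNHG5 are lower in undifferentiated libraries than in any differentiated one, and those of SNHG15, SNHG4, SNHG3 and SNHG9 are higher.

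SNHG7, host of SNORA17A and SNORA17B, was the called gene with the largest log2 rise. It had 114 and 141 counts in undifferentiated, 380 and 551 in control, 452 and 699 in micelle-without-lipid and 643 and 851 in lipid micelle libraries. Its normalised level was 348 and 480 CPM before and 1490 and 1410 CPM after differentiation, with no overlap, and the log2 difference was 1.81 ± 0.24 (SE, adjusted p = 2.4e-05 in edgeR). Of 11 SNHG7 smORFs tested, 10 were called higher by 1.72 to 3.38 on the log2 scale, where 17.9% of all tested smORFs were called higher. IEC_19040, printed above, had 46 and 53 counts in undifferentiated and 164 and 307 in control libraries (log2 fold change 2.12 ± 0.28, SE, edgeR adjusted p = 2.29e-05). IEC_18331 went from 2 and 2 counts to 21 and 25, a ratio of 10.8 with a 95% counting interval of 3.94 to 41.3, and lies in part opposite an exon of the other strand. In the leading SNHG7 smORF, IEC_18336, 50 of 275 stretches of 28 bases also occur elsewhere in hg38, and in IEC_19040 4 of 42.

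SNHG11, host of SNORA60 and SNORA71E, lies beside SNHG17 on chr20, on the opposite strand. It had 44 and 35 counts in undifferentiated, 84 and 122 in control, 83 and 103 in micelle-without-lipid and 93 and 124 in lipid micelle libraries. The undifferentiated libraries were the lowest, at 134 and 119 CPM against 329 and 313 CPM in control (log2 fold change 1.33 ± 0.24, SE, edgeR adjusted p = 0.000387). Of its 14 tested smORFs 12 were called higher, by 1.22 to 2.55, and the other 2 had log2 fold changes of -0.25 and 0.20. Its leading smORF, the 273-base IEC_06236, read 39 and 31 counts before and 84 and 117 after differentiation.

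SNHG29 carried the most counts of the called genes, with 405 and 464 in undifferentiated, 813 and 1407 in control, 945 and 1477 in micelle-without-lipid and 1024 and 1516 in lipid micelle libraries. Both undifferentiated values, 1240 and 1580 CPM, lay under the lowest differentiated one (log2 fold change to control 1.27 ± 0.24, SE, edgeR adjusted p = 0.000567). IEC_07400 supplied most of this, with 374 and 422 counts before and 762 and 1342 after. SNHG32, host of SNORD48 and SNORD52, had 193 and 219 counts in undifferentiated, 435 and 521 in control, 459 and 681 in micelle-without-lipid and 443 and 516 in lipid micelle libraries. Its log2 fold change was 1.19 ± 0.23 (SE, edgeR adjusted p = 0.000863), the undifferentiated libraries were again the lowest, and the call was lost without control replicate 1 or when all overlapping smORFs were summed, with log2 fold changes of 1.00 and 0.83. SNHG5, host of SNORD50A and SNORD50B, had 89 and 63 counts in undifferentiated, 124 and 208 in control, 144 and 223 in micelle-without-lipid and 124 and 140 in lipid micelle libraries. It was 215 to 272 CPM before and 486 to 533 CPM after differentiation (log2 fold change 1.07 ± 0.22, SE, edgeR adjusted p = 0.00147), and this call was lost without undifferentiated replicate 2 or control replicate 2, and when all overlapping smORFs were summed, with log2 fold changes of 0.90, 0.98 and 0.97. With all smORFs summed, 3 genes in place of 5 were called higher.

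SNHG8, host of SNORA24, missed the fold threshold by a little. It had 394 and 316 counts in undifferentiated, 559 and 900 in control, 637 and 873 in micelle-without-lipid and 723 and 1000 in lipid micelle libraries. Control libraries at 2190 and 2310 CPM did not overlap undifferentiated ones at 1200 and 1080 CPM, and the log2 fold change was 0.98 ± 0.22 (SE, edgeR adjusted p = 0.0021). The 4 SNHG8 smORFs called higher, by 1.04 to 1.25, began 84 to 206 nt from the gene's 5′ end. The other 7 were not called, with log2 fold changes from -0.35 to 0.81, and among them IEC_11634 (-0.35) and IEC_10840 (0.79) began 53 nt from that end and IEC_10831 (0.81) began 404 nt from it.

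SNHG9, host of SNORA78, fell. Its single smORF, IEC_09955, had 17 and 10 counts in undifferentiated, 2 and 3 in control, 5 and 5 in micelle-without-lipid and 4 and 3 in lipid micelle libraries. Only the undifferentiated libraries reached the low-count filter, so SNHG9 could enter the test only through the group where it was high. Its place among the genes and smORFs called lower is therefore not independent of that filter. With so few control counts the size is given as a ratio of undifferentiated over control of 5.61, with a 95% counting interval of 2.13 to 18.7 (edgeR adjusted p = 0.00681). The call was lost without undifferentiated replicate 1 or control replicate 2, with an adjusted p of up to 0.0845 in edgeR. SNHG3, host of SNORA73A and SNORA73B, had 59 and 41 counts in undifferentiated, 12 and 27 in control, 10 and 20 in micelle-without-lipid and 18 and 14 in lipid micelle libraries. Every differentiated library lay below both undifferentiated ones in CPM, and the log2 fold change to control was -1.42 ± 0.35 (SE, edgeR adjusted p = 0.00465).

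SNHG15, host of SNORA9, had 110 and 83 counts in undifferentiated, 33 and 55 in control, 37 and 63 in micelle-without-lipid and 47 and 64 in lipid micelle libraries. The undifferentiated libraries, at 336 and 283 CPM, stood above all others, and the log2 fold change was -1.19 ± 0.25 (SE, edgeR adjusted p = 0.00151). All 16 tested SNHG15 smORFs had a negative log2 fold change, and 5 were called lower, by -1.61 to -1.21, against a background of 15.5% called lower among all tested smORFs. SNHG4, host of SNORA74A, had 47 and 28 counts in undifferentiated, 15 and 17 in control, 13 and 17 in micelle-without-lipid and 7 and 18 in lipid micelle libraries. Its log2 fold change was -1.25 ± 0.39 (SE, edgeR adjusted p = 0.0175). The call was lost in DESeq2 and without undifferentiated replicate 1 or control replicate 2. The SNHG4 counts come from IEC_08004 alone, which lies wholly in MATR3 exons and only in part in SNHG4 exons. Footprints on SNHG4 and on MATR3 RNA therefore cannot be told apart here.

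**Figure D3:**
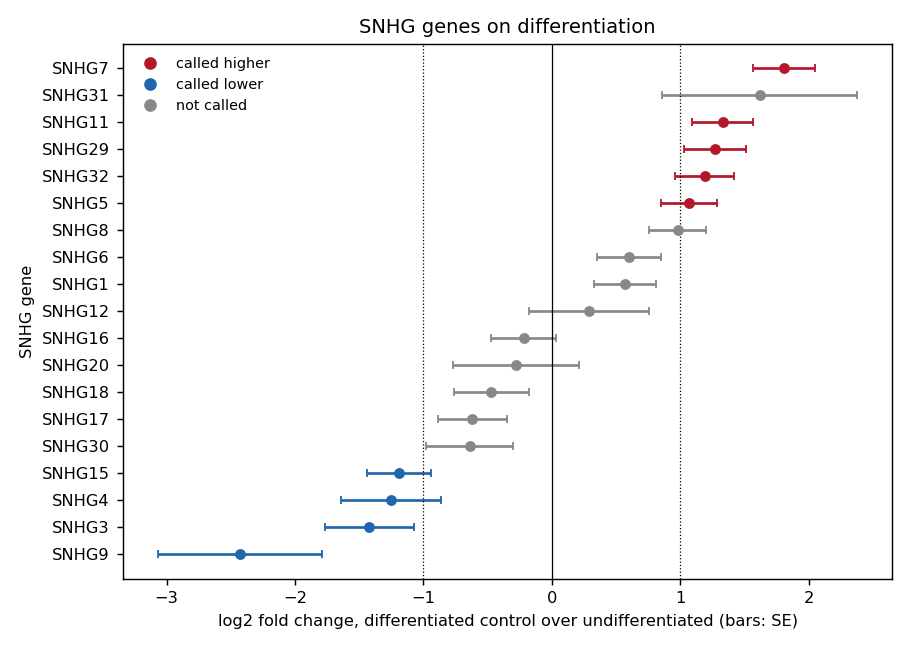
log2 fold change of differentiated control over undifferentiated cells for 19 SNHG genes, with points for the estimate, bars for its SE and dotted lines at the fold threshold of 1 on the log2 scale. The 5 genes called higher sit between 1.07 and 1.81 and the 4 called lower between -2.43 and -1.19, and SNHG31 has a wide bar and rests on 3 and 1 against 7 and 6 counts.

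The remaining tested genes did not pass. SNHG6, host of SNORD87, had 142 and 172 counts in undifferentiated and 170 and 342 in control libraries (log2 fold change 0.60 ± 0.25, SE, edgeR adjusted p = 0.059), and 320 and 346 in micelle-without-lipid and 232 and 392 in lipid micelle libraries. SNHG31 had 3 and 1, 7 and 6, 11 and 17, and 5 and 7 counts in the same order of groups (log2 fold change 1.62 ± 0.76, SE, edgeR adjusted p = 0.0988). SNHG12, host of SNORA16A, had 14 and 8, 11 and 17, 15 and 11, and 15 and 15 counts. SNHG16 had 69 and 61, 41 and 76, 46 and 55, and 44 and 66 counts. SNHG18 had 67 and 39, 26 and 54, 30 and 43, and 42 and 55 counts, and SNHG30 had 57 and 45, 38 and 27, 33 and 31, and 37 and 59. SNHG12, SNHG16, SNHG18 and SNHG30 had log2 fold changes of 0.29, -0.22, -0.47 and -0.64 with adjusted p of 0.638, 0.487, 0.20 and 0.139 in edgeR. SNHG30 was called lower without control replicate 1 (-1.24, edgeR adjusted p = 0.0218) and was at -0.15 without control replicate 2.

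SNHG20, whose smORFs overlap SEC14L1 exons, had 40 and 11 counts in undifferentiated, 12 and 32 in control, 9 and 23 in micelle-without-lipid and 28 and 27 in lipid micelle libraries. Its groups overlapped, and the log2 difference of -0.28 ± 0.49 (SE, adjusted p = 0.666 in edgeR) turned to 0.81 without undifferentiated replicate 1 and to 0.01 without control replicate 1. SNHG17 held 45 smORFs in a single overlapping cluster and had 413 and 202 counts in undifferentiated, 182 and 220 in control, 167 and 245 in micelle-without-lipid and 251 and 247 in lipid micelle libraries. The undifferentiated libraries were far apart, at 1260 and 688 CPM, and the second lay under control replicate 1 at 713 CPM (log2 fold change -0.62 ± 0.27, SE, edgeR adjusted p = 0.0777). Of 44 tested SNHG17 smORFs 1, IEC_23431, was called lower. SNHG10, SNHG19 and SNHG25 had too few counts to test, with at most 8 counts in any library. SNHG19 had 7 and 8 counts in undifferentiated and 0 and 2 in control libraries, a ratio of 7.79 with a 95% counting interval of 1.81 to 70.2.

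At the level of single smORFs, 175 of the 221 could be tested, 45 (25.7%) were called higher and 20 (11.4%) lower, beside the backgrounds of 17.9% and 15.5%. Because smORFs of a gene overlap, these are not independent, and with 1 smORF per cluster 20 could be tested, 6 were higher and 4 lower. The number called lower changed with the processing. DESeq2 called 41 higher and 5 lower. Over all smORFs it called 3301 either way, where edgeR called 5070. Fewer SNHG smORFs were also lower without undifferentiated replicate 1, control replicate 1 or control replicate 2. With at least 10 counts in every library 110 could be tested, 36 were higher and 7 lower. A smORF with few counts can pass the default filter only through the group where it is high. Shares over all smORFs by direction are not given for these settings. Whether the fall in lower calls is particular to SNHG smORFs therefore cannot be told. The 45 lay in SNHG11 (12), SNHG5 (10), SNHG7 (10), SNHG29 (6), SNHG8 (4), SNHG32 (2) and SNHG6 (1). The 20 lay in SNHG1 (5), SNHG15 (5), SNHG3 (2), SNHG4 (2), SNHG30 (2), SNHG9, SNHG17, SNHG29 and SNHG32 (1 each).

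A further question was whether the smORFs of a gene moved together. A test of each smORF against the others of its gene, added after the data were seen and run with edgeR, called 151 of 12833 smORFs of all genes (1.18%) and 6 of 172 in SNHG genes (3.49%). These were IEC_21307 of SNHG1 and IEC_16799 of SNHG5, which stood above their gene, and IEC_06760 of SNHG29, IEC_04108 and IEC_04111 of SNHG32 and IEC_11634 of SNHG8, which stood below it.

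In SNHG1, host of SNORD22 and SNORD25 to SNORD31, 5 of 12 tested smORFs were called lower on differentiation, by -1.85 to -1.28, and none higher, beside 15.5% and 17.9% of all tested smORFs. SNHG1 smORFs form 3 overlap clusters, so they share reads. IEC_21523 for example had 35 and 26 counts in undifferentiated and 5 and 13 in control libraries (log2 fold change -1.85 ± 0.47, SE, edgeR adjusted p = 0.00557). IEC_21307, 1997 nt from the 5′ end and 27 nt long, had 88 and 28 against 81 and 167 counts and differed by 1.00 ± 0.35 on the log2 scale (SE, adjusted p = 0.0318 in edgeR), just under the threshold before rounding. Its 88 counts in undifferentiated replicate 1 overlapped the 81 of control replicate 1 in counts, but not in CPM (133 and 47.9 against 153 and 210). Relative to the other SNHG1 smORFs it stood 1.39 higher on the log2 scale (edgeR within-gene adjusted p = 0.0133). Of the summed SNHG1 counts, IEC_21307 gave 88 of 158 and 28 of 84 in undifferentiated and 81 of 138 and 167 of 235 in control libraries. The summed level had a log2 difference of 0.57 ± 0.24 (SE, adjusted p = 0.0689 in edgeR) that turned to -0.39 when all SNHG1 smORFs were summed.

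In SNHG29, 6 of 8 tested smORFs were higher and IEC_06760, a 51-base smORF 2314 nt from the 5′ end, was lower, with 23 and 35 counts in undifferentiated and 10 and 17 in control libraries (log2 fold change -1.21 ± 0.43, SE, edgeR adjusted p = 0.0339). It stood 2.48 below its gene on the log2 scale (edgeR within-gene adjusted p = 3.1e-05), while IEC_06763, further 3′, was higher by 2.48 ± 0.40 (SE) with 8 and 7 against 41 and 48 counts. In IEC_06763, which lies in part opposite an exon of the other strand, 60 of 183 stretches of 28 bases also occur elsewhere in hg38. In SNHG32 the 5′-most smORFs, IEC_11052 and IEC_04115, were both higher by 1.15, whereas IEC_04111, of 33 bases over 2 exons, had 15 and 14 counts before and 4 and 6 after (log2 fold change -1.60 ± 0.54, SE, edgeR adjusted p = 0.0276). The IEC_04111 call was lost in DESeq2 and without any 1 of the 4 libraries compared, where the adjusted p ranged from 0.0909 to 0.137. The other 5 SNHG32 smORFs lay between -0.96 and 0.59 and were not called. In SNHG5, IEC_16799, of 36 bases, went from 2 and 1 to 17 and 34 counts, a ratio of 16 with a 95% counting interval of 5.16 to 80.0, while the leading IEC_16791 went from 53 and 45 to 75 and 147. In SNHG6, IEC_20852 was higher, with 16 and 24 against 51 and 90 counts (log2 fold change 1.70 ± 0.41, SE, edgeR adjusted p = 0.00402), a call lost without undifferentiated replicate 1 (adjusted p = 0.0647), and the other 4 tested smORFs lay between -0.27 and 0.56.

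**Figure D4:**
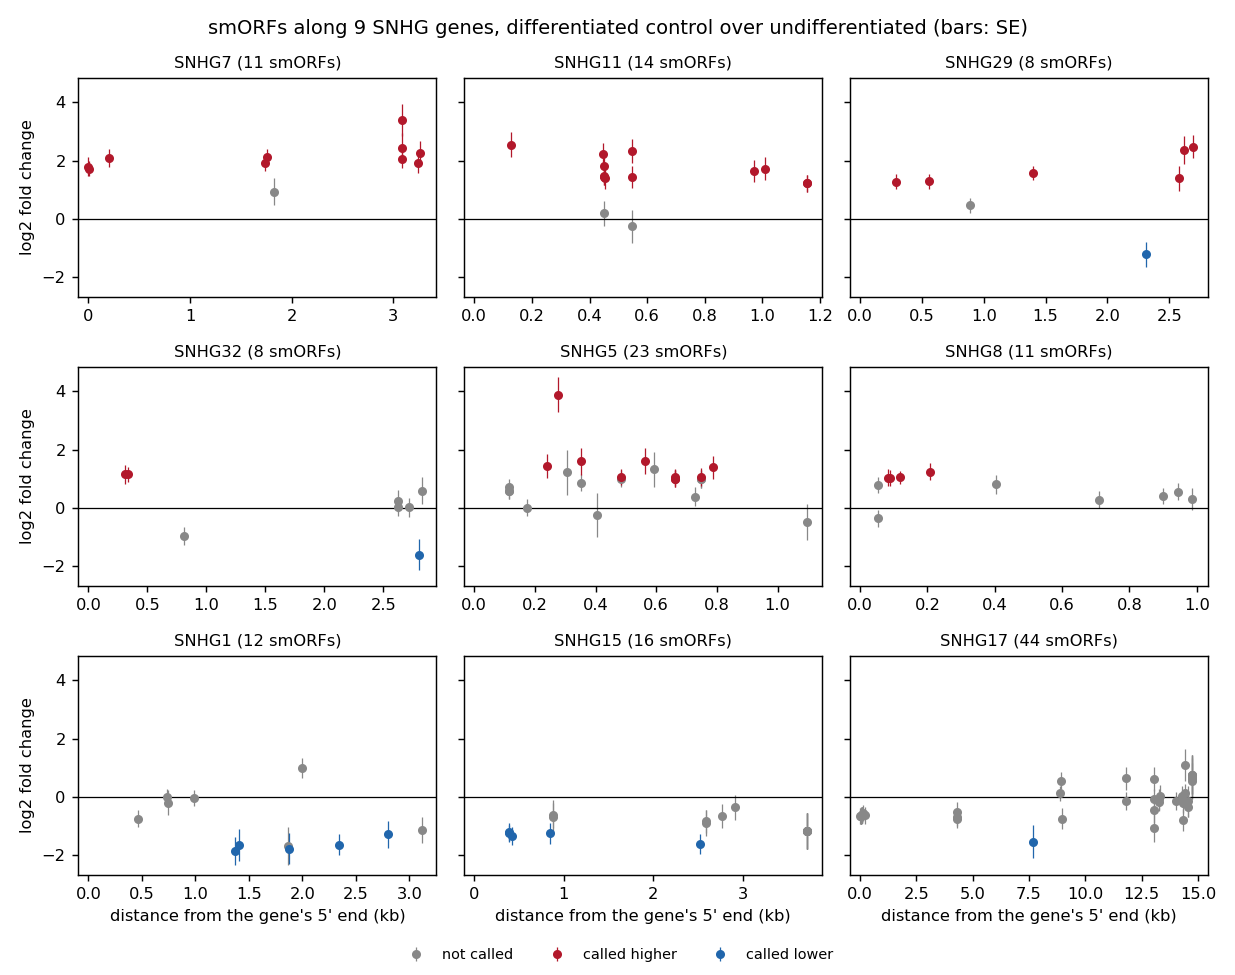
log2 fold change of control over undifferentiated cells (y axis, bars are SE) for each tested smORF of 9 SNHG genes against the distance of its first base from the gene's 5′ end in kb (x axis), coloured by call. All tested smORFs of SNHG7 are at 0.94 or above, SNHG15 is at or under -0.36 throughout, and SNHG29, SNHG32 and SNHG1 each hold a smORF apart from the rest.

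The 5′ ends were inspected because pyrimidine-rich starts are a known feature of this family. RefSeq (GRCh38.p14) start sites were found for 18 of the 22 genes, and the 15 bases on either side of each were searched on the gene strand only for CTTT, a fragment of such starts. It was present in 8 of 18 (44.4%) against 12.5% of 35116 windows of all RefSeq promoters, in 3 of 5 genes called higher, 1 of 2 called lower and 4 of the other 11. This is a description of letters and not of a site. The CTTT of SNHG29 and SNHG8 lies in the 15 bases before the RefSeq start, and so outside the RNA that begins there. The windows of the 5 genes called higher are printed 5′ to 3′ with CTTT in capitals where it occurred.
SNHG7 start: gcttcccttctcgtcctctgcgtgcgccgg
SNHG11 start: gcgccgctctaggctgcagccgcgccccca
SNHG29 start: cccctcCTTTtgtgaggattgggatattcc
SNHG32 start: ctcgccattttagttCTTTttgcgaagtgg
SNHG5 start: gctgcgcacttcggtCTTTtacgtcggcct

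Related genes were followed with lists chosen for their role. Of 5 other lncRNA hosts of snoRNAs, 4 could be tested and 0 were called in edgeR, and 0 in DESeq2. All 4 had a positive log2 fold change, with a median of 0.90. All 4 also had an unadjusted p under 0.05 in edgeR, which 50.8% of all genes tested had when both directions are counted. GAS5 had 110 and 98 counts in undifferentiated and 148 and 253 in control libraries (log2 fold change 0.88 ± 0.22, SE, edgeR adjusted p = 0.00437), ZFAS1 had 1328 and 996 against 1645 and 3011 (0.93 ± 0.24, SE), and EPB41L4A-AS1 had 44 and 42 against 72 and 97 (0.93 ± 0.25, SE). Of 16 protein-coding snoRNA hosts, for which the smORFs lie outside the coding region, 7 could be tested, 1 was higher (PPAN, 1 and 0 against 6 and 20 counts) and none lower, with a median of 0.30, and DESeq2 called 1. Of 18 genes for snoRNP core or assembly proteins, which bind and build snoRNAs into particles, 6 could be tested, 1 was lower (NOP58, 95 and 81 against 33 and 32 counts) and none higher, with a median of -0.35, and DESeq2 called 1. Of 19 genes of nonsense-mediated decay, 6 could be tested and 3 were lower in edgeR and 2 in DESeq2, with a median of -1.31, beside 16.7% of all genes called lower. The 3 were SMG9 (54 and 44 against 9 and 11 counts), UPF2 (48 and 29 against 13 and 17) and CASC3 (14 and 18 against 2 and 8). These counts are of smORFs in or near such genes and not of their proteins' reading frames, and the median over all genes tested was 0.06.

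The second question was whether micelles change SNHG footprints in differentiated cells. No SNHG gene or smORF was called in any of the 3 micelle comparisons by edgeR or by DESeq2. Among all features edgeR called 0% in each, and DESeq2 called 2 smORFs and 2 genes for micelles without lipid over control and 1 gene between the micelle groups. The comparisons share libraries, so they are given side by side and not against each other. For micelles without lipid over control, 0 of 19 genes and 3 of 175 smORFs (1.71%) had an unadjusted p under 0.05, against 4.97% and 4.08% of all tested. For lipid micelles over control this was 1 gene (5.26%) and 7 smORFs (4.0%), against 4.84% and 4.66%. For lipid micelles over micelles without lipid it was 4 genes (21.1%) and 22 smORFs (12.6%), against 3.86% and 4.13%. The lowest adjusted p in this last comparison was 0.995 for genes and 0.999 for smORFs (edgeR).

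Of those 22 smORFs, 15 were in SNHG5, all lower with lipid, by -1.73 to -0.78, and they fell in 2 overlap clusters, so they repeat much of the same reads. As a gene, SNHG5 was at 486 and 533 CPM in control, 517 and 603 CPM in micelle-without-lipid and 362 and 318 CPM in lipid micelle libraries. Both lipid libraries lay below the other 4 differentiated ones. The log2 fold change was -0.72 ± 0.22 (SE) against micelles without lipid, with an unadjusted p of 0.00408 and an adjusted p of 0.995 in edgeR, and -0.59 ± 0.22 (SE) against control, with an unadjusted p of 0.0155 and an adjusted p of 0.933. It therefore did not pass correction in either comparison.

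SNHG1 was at 541 and 602 CPM in control, 678 and 739 CPM in micelle-without-lipid and 473 and 428 CPM in lipid micelle libraries, a log2 difference between the micelle groups of -0.66 ± 0.24 (SE, edgeR adjusted p = 0.995). Within it IEC_21307 had 144 and 196 counts without and 93 and 112 with lipid (log2 fold change -0.99 ± 0.33, SE), while IEC_23614 had 10 and 16 against 19 and 38 (0.85 ± 0.39, SE), and neither passed correction. SNHG32 was at 1650 and 1840 CPM without and 1290 and 1170 CPM with lipid (-0.50 ± 0.23, SE, edgeR adjusted p = 0.995). SNHG31 had 11 and 17 against 5 and 7 counts (-1.47 ± 0.54, SE, edgeR adjusted p = 0.995). SNHG7 was at 1490 and 1410 CPM in control and 1880 and 1940 CPM with lipid micelles, a log2 fold change of 0.39 ± 0.22 (SE) with an unadjusted p of 0.0981 in edgeR. SNHG29 and SNHG8 differed by -0.20 ± 0.23 and -0.08 ± 0.21 (SE) between the micelle groups, smaller than their SE.

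**Figure D5:**
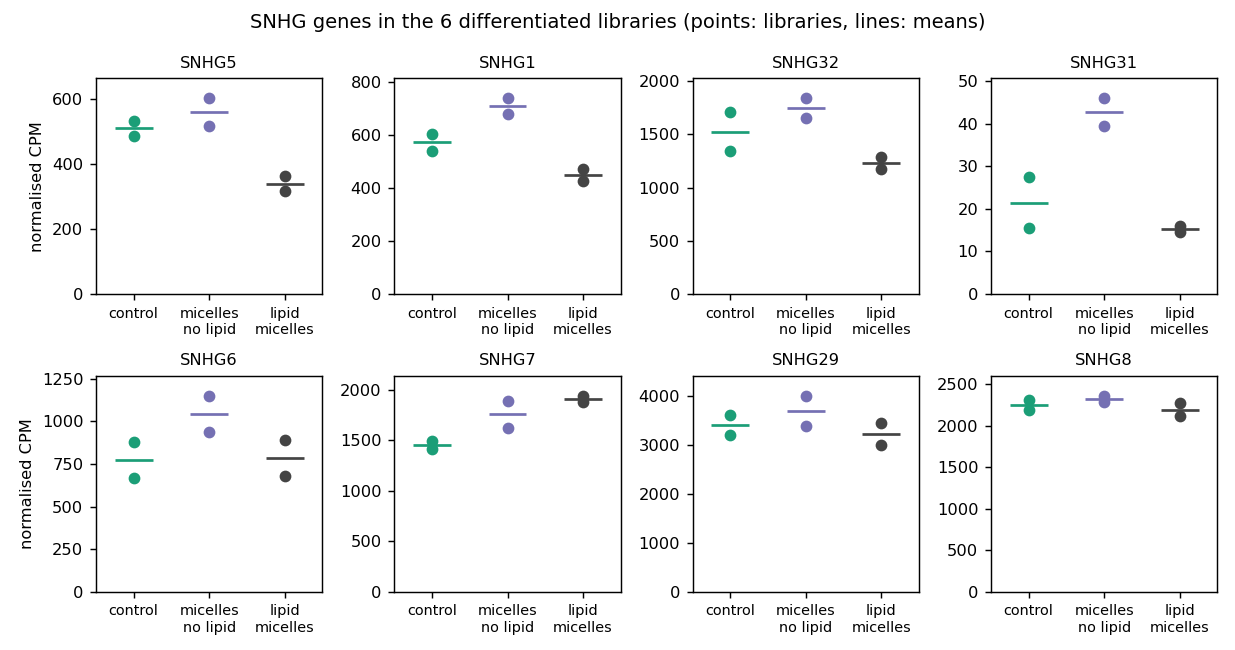
Normalised CPM of 8 SNHG genes in the 6 differentiated libraries, with 1 point per library, lines for the means of 2 and each y axis starting at 0. The lipid micelle libraries of SNHG5 (318 and 362 CPM) lie under the other 4, and no gene passed correction in any micelle comparison.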

How the data were processed

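Ribo-Seq counts of 24199 smORFs in 8 libraries were deposited by the authors as raw whole-number counts per smORF, with an annotation giving sequence, exons, class, a RibORF score and a PhyloCSF score. Per the labels, the submitters' processing notes name STAR 2.7.11a and HOMER and the builds hg38 and GRCh38.p13. According to the methods, smORFs were called with RibORF in several cell types, at most 150 amino acids long and outside known coding regions, and the calls were combined into a single set, so not every smORF need have been called in Caco-2. Strand and multi-mapping options of the counting are not given in the sources used here. Overlapping smORFs each counted the reads they shared, and such sharing can repeat 1 change across several smORFs.

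Counts were joined to the annotation by smORF identifier, and every library was used. edgeR 4.0.16 (R 4.3.3) was run with its low-count filter, TMM normalisation and the quasi-likelihood test over all 8 libraries and all smORFs, with 1 coefficient per group. A call needed a Benjamini-Hochberg adjusted p under 0.05 and a log2 fold change of at least 1 in size. SE is the log2 fold change divided by the square root of F. For genes, the most abundant smORF of each overlap cluster was summed over the gene's clusters. CPM values at the smORF and the gene level have different denominators. Ratios from few counts carry 95% intervals that cover counting error only. DESeq2 1.42.0 was an alternative. The edgeR comparisons of groups were checked on simulated data, and DESeq2 and the within-gene test were not. GENCODE 44 gave exons, and RefSeq gave start sites.

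Every SNHG gene was named, with its leading smORF and smORFs that were called. A few smORFs that differed from the rest of their gene were named after their values were seen. The members and lists were chosen with earlier results of these data known. Replicates differed beyond sampling noise in each group (chi-square per degree of freedom 2.51 to 3.25).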

Additional observations from a re-analysis of the deposited data

How the results depend on the processing

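Calls among SNHG smORFs on differentiation numbered 65 and fell to 43 with at least 10 counts in every library (110 tested) and to 10 with 1 smORF per overlap cluster (20 tested), where fewer smORFs were tested by construction. DESeq2 called 46 SNHG smORFs and 3301 of all smORFs, where edgeR called 65 and 5070. Leaving out each library gave 45 to 74 smORF calls, 7 to 26 of them lower, and 6 to 10 gene calls, against 65 and 9. Replicate numbers were shared by all groups. Same-numbered differentiated libraries deviated together (r of 0.109 to 0.198) but not with undifferentiated ones (r of -0.065 to 0.021), and whether a shared batch lies behind this was not tested. The labels do not say that a number marks a batch or day, and each comparison holds 2 numbers, so the fits had no block, and with the replicate block 64 smORFs and 9 genes were called. Micelle comparisons gave 0 calls under every alternative run, the block in the 6 differentiated libraries included. SNHG7, SNHG11, SNHG29, SNHG15 and SNHG3 kept their calls in all 17 alternatives. SNHG8 passed the fold threshold in 7 of 17 (log2 fold change 0.89 to 1.05) and IEC_21307 in 11 of 16 (0.44 to 1.93, the highest without undifferentiated replicate 1). IEC_06760 lost its call in 4 of 16 and IEC_04111 in 5 of 14 alternatives, DESeq2 and single libraries left out among them. SNHG1 turned to -0.39 with all its smORFs summed, and SNHG20 ranged from -0.88 to 0.81 with single libraries left out, turning to 0.81 without undifferentiated replicate 1 and 0.01 without control replicate 1. The mean share of counts was 1.78%, 2.27%, 2.34% and 2.13% in undifferentiated, control, micelle-without-lipid and lipid micelle libraries with overlapping smORFs included, and 0.838%, 1.39%, 1.53% and 1.32% with smORFs over small RNAs left out of the denominator. The cause of these shifts was not tested. As alternatives chosen after seeing the data, 52 calls were left without smORFs holding a repeated 28-base stretch or bases outside the gene, and 57 without those within 60 nt of a small RNA. Fewer smORFs were tested there by construction, and no share over all smORFs is given beside these counts. Genes with a handful of counts, SNHG9, SNHG10, SNHG19, SNHG25 and SNHG31, are limited by depth.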
